A study of Mus musculus with 44 samples.

Results

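Round spermatids were compared with spermatocytes of wild-type adult mice in the second of 2 experiments. The comparison used 10 arrays of the 44 in the series, 5 of spermatocytes and 5 of round spermatids, chosen by the array titles, and 9938 genes were measured on them. The series holds wild-type mice beside mice with a tagged TH2B, the testis form of histone H2B (experiment 1), and wild-type mice beside mice labelled kd, which make no TH2B (experiment 2). Neither group compared here carried an engineered allele or received an agent: both were total RNA of germ cells from adult wild-type testes, and the label that set them apart was the cell type. The labels file the wild-type entry under a heading that names Brdt, so the genotype was read from the titles and the design text. The 5 arrays of a group are called biological replicates in the design text. How the cells were separated, and whether a sample pooled animals, the sources used here do not give. In RNA from a mixture, a smaller number of cells of one type and less RNA in each of those cells cannot be told apart.

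Spermatocytes are germ cells in meiosis, in which homologous chromosomes pair along the synaptonemal complex, exchange DNA and are separated by the meiotic divisions. Round spermatids are the haploid cells that follow. They assemble the acrosome, the enzyme-filled cap a sperm needs to pass the egg coat, start the tail, and prepare the later exchange of histones for transition proteins and then protamines. The X and Y chromosomes are silenced in spermatocytes, and much of the mRNA made in round spermatids is stored and translated after transcription has ended.

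Between 15997 and 18193 of 45281 probes per array (35.3 to 40.2%) lay above background at a detection p under 0.05, and median raw intensities ran from 97.5 to 118. Precision is limited by how far a probe lies above background and by 5 arrays a group. Values below are background-corrected, quantile-normalized log2 intensities, on which the tested genes spanned 4.25 to 14.78. Pairwise correlations over genes were 0.985 to 0.992 among spermatocyte arrays, 0.989 to 0.992 among spermatid arrays and 0.831 to 0.871 between the groups. The leading principal component carried 89.3% of the variance and separated all 5 spermatocyte arrays from all 5 spermatid arrays. No 2 arrays held identical values.

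Of the 9938 genes, 7394 (74.4%) differed between the stages at an adjusted p under 0.05 in limma's moderated test. In spermatids 3186 genes (32.1%) were higher and 4208 (42.3%) lower. The 2 groups of arrays did not overlap for 6433 genes (64.7%), 2771 (27.9%) with spermatids on the higher side and 3662 (36.8%) on the lower. At a difference of at least 2-fold, 1833 genes (18.4%) were higher and 1839 (18.5%) lower, 36.9% in all. With arrays centred on their medians in place of quantile normalization, that split was 1619 higher and 2483 lower. With cyclic loess it was 2086 higher and 1489 lower. Without background correction it was 1227 and 998, and with the authors' processed values 1229 and 1010. The median difference of all tested genes was -0.14 on the log2 scale. It was -0.31 with median centring and -0.01 with cyclic loess, so a list below is read against the median of all genes and not against 0, and its counts against the 32.1% higher and 42.3% lower of all genes. A rise of at least 4-fold was seen for 857 genes and a fall of at least 4-fold for 334. Beyond 8-fold the order turned, with 41 genes higher and 61 lower, and the 9 genes that differed by over 16-fold were all lower in spermatids.

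The largest rise was that of Car2, carbonic anhydrase 2, which interconverts carbon dioxide and bicarbonate. Car2 read 7.24, 6.50, 7.14, 7.17 and 7.51 on the 5 spermatocyte arrays and 10.63, 10.52, 10.83, 11.01 and 10.51 on the 5 spermatid arrays, in the order of the replicate numbers. The 2 ranges lay 3 log2 units apart. The difference was 3.59 ± 0.34 (limma's SE, n = 5 and 5), a 12-fold rise with an adjusted p of 4.64e-12 in limma's test. For this and the differences below, that SE rests on a spread estimated over all 44 arrays, not on these 10 alone. Paqr5, a membrane progesterone receptor, rose by 3.43 ± 0.36, and Nqo2, a quinone reductase, by 3.33 ± 0.32. Spem2, whose relative Spem1 is required in mice to shed sperm cytoplasm, rose by 3.32 ± 0.33. The 15 largest rises also held Ttc24 (3.37), Speer4e (3.33), Nudt16l2 (3.31), Cyp2a12 (3.25), Klk1b9 (3.23), Cdrt4 (3.22), Bpifa3 (3.21) and 4 genes known by a clone name. Speer4e and Klk1b9 belong to families of near-identical copies, so the member measured is uncertain.

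The largest fall was that of Septin12, a septin of the sperm annulus, the ring between the middle and principal pieces of the tail. Septin12 read 11.05, 10.76, 10.86, 10.55 and 10.83 in spermatocytes and 5.84, 5.61, 6.11, 5.90 and 6.04 in spermatids. Every spermatid array was thus over 4 log2 units below every spermatocyte array, and the fall was 4.91 ± 0.25 (30.1-fold, adjusted p = 1.05e-19). Pou5f2, a POU-domain transcription factor of male germ cells, went from 12.05, 12.26, 12.30, 12.29 and 12.06 to 7.44, 7.94, 7.41, 7.40 and 7.33. The groups were far apart and the fall was 25.8-fold (adjusted p = 3.72e-18). Chst1, a sulfotransferase of carbohydrate chains, fell by 4.30 ± 0.18. Mgll, the monoacylglycerol lipase that degrades an endocannabinoid, fell by 4.02 ± 0.26. Sap30, a subunit of the SIN3 deacetylase complex, fell by 3.93 ± 0.20, while Kbtbd6, a substrate adaptor of a CUL3 ubiquitin ligase, fell by 4.07 ± 0.24. Gm5878 (-4.38), Fam13c (-3.94) and Lypd10 (-3.88) were among the 15 largest falls as well.

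Another 4 of the 15 largest falls were Cyp17a1, the steroid hydroxylase of Leydig cells, the kallikreins Klk1b21 and Klk1b27, and Lcn2, the siderophore-binding lipocalin 2. Cyp17a1 read 12.55, 11.97, 11.03, 10.56 and 10.88 in spermatocytes and 8.19, 7.66, 6.46, 6.75 and 6.96 in spermatids. Lcn2 read 12.05, 11.61, 10.28, 9.88 and 9.82 in spermatocytes and 7.62, 7.11, 6.43, 6.41 and 6.51 in spermatids. Klk1b21 read 11.63, 11.15, 10.63, 10.27 and 10.05 and then 6.94, 6.36, 6.06, 5.84 and 6.00. In all of them replicates 1 and 2 were the highest arrays of both groups, and the same 2 numbers carried the highest summed level of the Leydig cell markers. That sum, over 6 tested markers on the linear scale, was 18098, 16525, 8660, 7233 and 7352 on the spermatocyte arrays and 1901, 1247, 636, 622 and 954 on the spermatid arrays. The differences were -4.20 ± 0.44 for Cyp17a1, -3.91 ± 0.46 for Lcn2, -4.51 ± 0.37 for Klk1b21 and -4.20 ± 0.38 for Klk1b27, and the part of Leydig cell RNA in the last 3 was not tested. The kallikreins are near-identical copies and the member is uncertain, although Klk1b9, of the same family, was among the 15 largest rises.

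**Figure D1:**
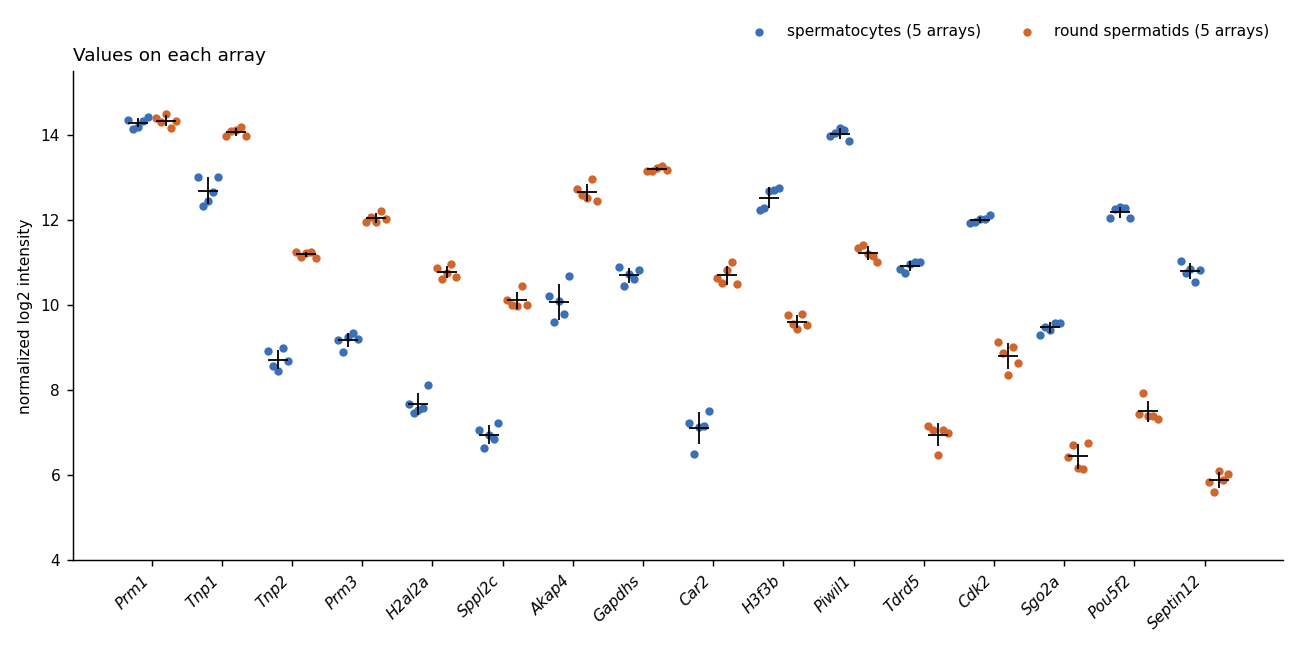
Normalized log2 intensity of 16 genes on each array (y axis, log2 units). Dots are arrays, 5 of spermatocytes in blue and 5 of round spermatids in orange, and the black marks are the group mean ± SD. Prm1 lies at 14.3 in both groups, Car2 rises from a mean of 7.11 to 10.70, and Septin12 falls from 10.81 to 5.90.

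The proteins that replace histones were measured through 5 genes, of which 4 rose and 1 did not pass, with a median difference of 2.47 against -0.14 for all genes. Prm3, a protamine-like protein encoded beside the protamines, read 9.18, 8.91, 9.26, 9.35 and 9.22 in spermatocytes and 11.97, 12.08, 11.96, 12.23 and 12.03 in spermatids, with a gap of over 2 log2 units. It rose by 2.87 ± 0.27 (7.31-fold, adjusted p = 3.56e-12). Tnp2, a transition protein, read 8.92, 8.57, 8.45, 9.0 and 8.69 and then 11.24, 11.15, 11.22, 11.26 and 11.10, and rose by 2.47 ± 0.20. H1f7, the spermatid linker histone that condenses the nucleus, rose by 2.86 ± 0.32. Tnp1, the main transition protein, was bright on the spermatocyte arrays as well, at 13.02, 12.33, 12.46, 12.67 and 13.02. It reached 13.98, 14.11, 14.13, 14.20 and 13.98 on the spermatid arrays. Its groups did not overlap and its rise was 1.38 ± 0.17. Prm1, protamine 1, read 14.37, 14.16, 14.20, 14.34 and 14.43 in spermatocytes and 14.41, 14.30, 14.50, 14.17 and 14.34 in spermatids. These ranges overlapped, the difference was 0.05 ± 0.10 (adjusted p = 0.70), and both lay close to the upper end of the scale. Whether spermatid RNA in the spermatocyte samples had a part in the Tnp1 and Prm1 levels there was not tested.

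Histone variants went the other way in most cases: of 12 tested, 1 rose (2 with same-numbered arrays as pairs), 7 fell and 4 did not pass (median -0.48). The riser was H2al2a, an H2A variant that acts with transition proteins in mice, from a mean of 7.68 to 10.78 (3.10 ± 0.33, adjusted p = 6.63e-11). H3f3b, 1 of the genes for the replacement histone H3.3, read 12.24, 12.28, 12.69, 12.70 and 12.75 in spermatocytes and 9.76, 9.55, 9.43, 9.80 and 9.54 in spermatids. All spermatid values were more than 2 log2 units below, a 7.54-fold fall (adjusted p = 5.47e-13). H3f3a, which encodes the same protein, was at 11.87 ± 0.22 (SD, n = 5) and 12.05 ± 0.06, with overlapping groups and a difference of 0.18 ± 0.12 (adjusted p = 0.18). The macroH2A genes fell, Macroh2a2 by 2.58 ± 0.23 and Macroh2a1 by 1.74 ± 0.21. H2az1, the variant H2A.Z, fell by 1.36 ± 0.16, and H2ax, phosphorylated at DNA breaks and on the silent sex chromosomes, fell by 1.04 ± 0.22.

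The enzymes and chaperones of histone removal were mixed: of 33 tested, 10 rose, 17 fell and 6 did not pass, with a median of -0.45. Risers included Tssk6, a spermatid kinase needed for histone replacement in mice (2.58 ± 0.33), Chd5, a chromatin remodeller of spermatids (2.57 ± 0.30), and Cdyl, a chromodomain protein (2.49 ± 0.32). Camk4, a calcium-dependent kinase, was not above background on any spermatocyte array and was at least 2.69-fold higher in spermatids (adjusted p = 7.77e-10). Brd3, a bromodomain protein, fell by 2.53 ± 0.19, the histone chaperones Nap1l1 and Nap1l4 by 1.99 ± 0.19 and 1.82 ± 0.17, and Rnf8, the ubiquitin ligase that marks H2A and H2B, by 1.78 ± 0.16. Ep400, of the TIP60 acetyltransferase complex, fell by 1.56 ± 0.20. Usp7, a deubiquitinase, rose by 1.03 ± 0.15 on its brightest probe, while the mean of its probes was -0.10. Phf7, a reader and ligase for histone H2A, was at 13.82 and 13.86 and did not pass.

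Enzymes that write and erase chromatin marks numbered 28, with 7 higher, 13 lower and 8 not passing (median -0.29). With median centring 4 were higher and 18 lower. Hdac11, a deacetylase, rose by 2.58 ± 0.32, Dnmt3l, the cofactor of de novo DNA methylation, by 2.29 ± 0.27, and Dot1l, the H3K79 methyltransferase, by 1.09 ± 0.16. Kmt2b, an H3K4 methyltransferase, fell by 2.21 ± 0.12, Prmt5, an arginine methyltransferase, by 1.97 ± 0.16, the deacetylase Sirt1 by 1.70 ± 0.23, and Dnmt1, the maintenance DNA methyltransferase, by 1.53 ± 0.19. Ezh2, the H3K27 methyltransferase, was at 10.19 and 10.05 and did not pass.

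**Figure D2:**
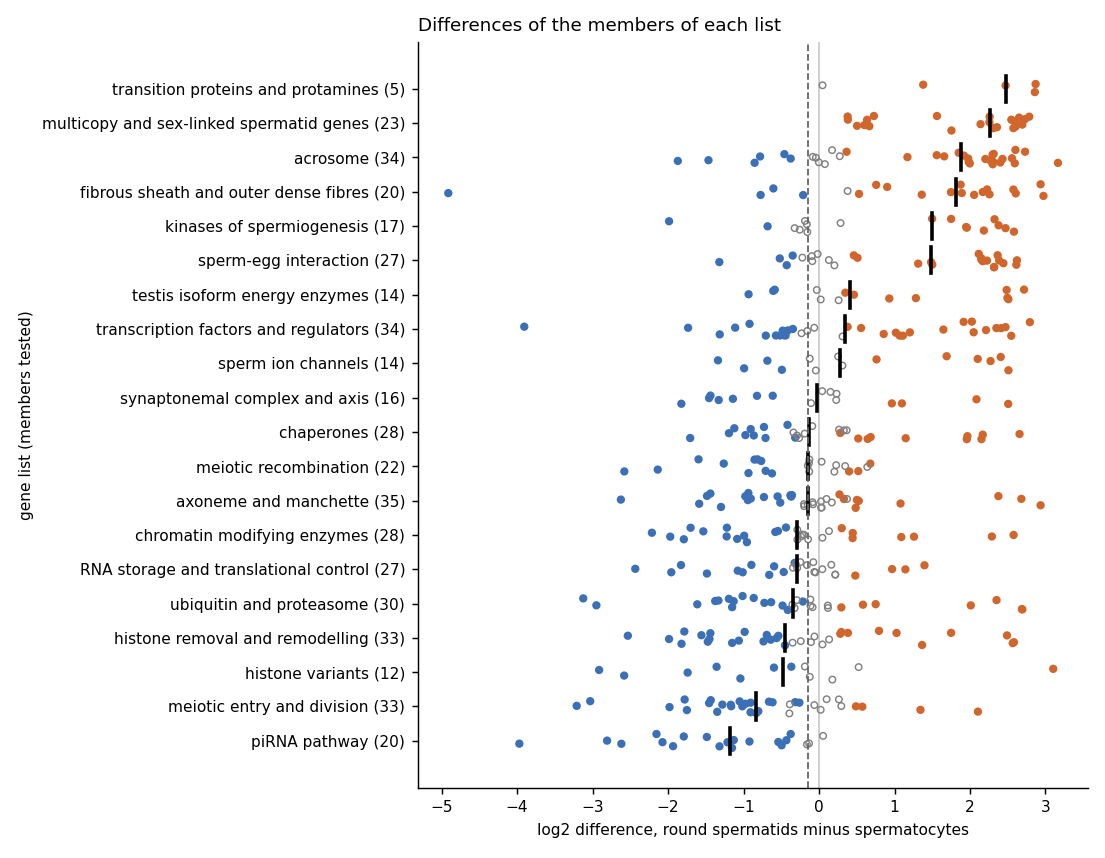
Log2 difference, round spermatids minus spermatocytes, of each tested member of 20 gene lists (x axis; lists on the y axis with the number of members tested). Orange dots rose and blue dots fell at an adjusted p under 0.05 in limma's test, open dots did not pass, black bars are list medians and the dashed line is the median of all genes, -0.14. The list medians run from -1.18 (piRNA pathway) to 2.47 (transition proteins and protamines).

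Among genes of the acrosome, 22 of 34 tested rose, 6 fell and 6 did not pass, with a median of 1.88. Sppl2c, an intramembrane protease of spermatids, read 7.06, 6.64, 6.95, 6.87 and 7.24 in spermatocytes and 10.12, 10.01, 9.97, 10.47 and 10.02 in spermatids. The gap exceeded 2 log2 units and the rise was 3.17 ± 0.31 (8.97-fold, adjusted p = 8.65e-12). Actrt1, an actin-related protein of the cap that anchors the acrosome to the nucleus, read 6.49, 6.31, 6.64, 6.23 and 6.75 and then 9.34, 9.04, 9.31, 9.37 and 9.0, a rise of 2.73 ± 0.31. Spaca7, a protein released from the acrosome, rose by 2.60 ± 0.25, Spata46, a protein of the spermatid nuclear envelope, by 2.59 ± 0.28, the hyaluronidase Hyal5 by 2.56 ± 0.26, and Galntl5, a glycosyltransferase-like protein, by 2.43 ± 0.27. The 6 fallers were Vps54, of the tethering complex for retrograde transport (-1.87 ± 0.21), Smap2, an ARF GTPase-activating protein (-1.46 ± 0.17), Agfg1, needed for proacrosomal vesicle fusion in mice (-0.85 ± 0.15), the kinase subunit Csnk2a2 (-0.78), and the Golgi proteins Golga3 (-0.46) and Pick1 (-0.38), which did not pass with cyclic loess. Among the members that did not pass were acrosomal contents. Acr, the protease acrosin, was at 12.04, 11.72, 11.64, 11.37 and 11.74 in spermatocytes and at 11.97, 11.90, 11.71, 11.88 and 11.93 in spermatids, overlapping ranges whose difference of 0.17 passed, at 0.26, without spermatocyte replicate 1. Acrbp, which binds proacrosin, was at 12.85 in both groups on its brightest probe, while the mean of its probes was higher in spermatids by 0.33.

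Of 27 tested genes for sperm-egg interaction, 17 rose, 4 fell and 6 did not pass (median 1.48). Plcz1, the sperm phospholipase that starts calcium waves in the egg, read 8.48, 8.22, 8.80, 8.28 and 8.82 and then 11.06, 10.94, 11.35, 11.27 and 11.03. The groups were over 2 log2 units apart and the rise was 2.61 ± 0.28 (adjusted p = 6.05e-11). The ADAM membrane proteins split. Adam21 (2.62 ± 0.30), Adam4 (2.44 ± 0.30), Adam6a (2.39 ± 0.34), Adam26a (2.37 ± 0.25) and Adam24 (2.32 ± 0.21) rose, while Adam18 (-0.52 ± 0.09), Adam5 (-0.43 ± 0.09) and Adam32 (-0.35 ± 0.09) fell. Adam3, required in mice for sperm passage into the oviduct, was at 12.99 and 13.12 with groups that did not overlap, and did not pass; nor did Clgn, calmegin, the chaperone that folds it (13.36 and 13.27), although the mean of the Clgn probes fell by 1.03. Tex101, a membrane partner of Adam3, fell by 1.32 ± 0.24. Adam6a and Adam6b are near-identical, so the member is uncertain.

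In the fibrous sheath, outer dense fibres and mitochondrial sheath of the tail, 15 of 20 tested genes rose, 4 fell and 1 did not pass (median 1.81). Spata18, a protein of mitochondrial quality control, read 9.42, 9.25, 9.61, 9.64 and 9.42 and then 12.36, 12.28, 12.54, 12.66 and 12.36, a 7.85-fold rise (adjusted p = 1.52e-12) with groups more than 2 log2 units apart. Akap4, the main protein of the fibrous sheath, read 10.22, 9.61, 10.10, 9.79 and 10.70 and then 12.73, 12.61, 12.53, 12.98 and 12.46. Its spermatocyte arrays were the more spread, without overlap, and the rise was 2.58 ± 0.28. Ropn1, which binds AKAP proteins in the sheath, rose by 2.94 ± 0.22, Akap14 by 2.61 ± 0.26 and Smcp, a cysteine-rich protein of the mitochondrial capsule, by 2.23 ± 0.27. Beside Septin12 the fallers included Gsk3a, a glycogen synthase kinase, at -0.77 ± 0.18.

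The axoneme, the microtubule core of the tail, and the manchette, the microtubule skirt that shapes the nucleus, differed from the sheath. Of 35 tested genes, 9 rose, 15 fell and 11 did not pass, with a median of -0.15, next to -0.14 for all genes, and with cyclic loess 12 rose and 12 fell. Tuba8, an alpha tubulin, rose by 2.68 ± 0.28 and Hook1, which links the manchette to the nuclear envelope, by 2.38 ± 0.27. Iqcg, a subunit of the nexin-dynein regulatory complex, fell by 2.63 ± 0.27, from a mean of 8.40 to 5.77. Ift20, of intraflagellar transport, fell by 1.59 ± 0.13, the dynein heavy chain Dnah8 by 1.48 ± 0.35, and Ccdc40 and Ccdc39, which set the axonemal repeat, by 1.44 ± 0.20 and 1.30 ± 0.16. Tubb4b, a beta tubulin, was at 13.52 and 13.56 and did not pass.

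Sperm ion channels split by subunit. Of 14 tested, 6 rose, 4 fell and 4 did not pass (median 0.28). The pore-forming subunits of the CatSper calcium channel Catsper1 (2.51 ± 0.28), Catsper4 (2.41 ± 0.33) and Catsper3 (2.10 ± 0.32) rose, whereas Catsper2, also a pore subunit, was at 13.03 ± 0.15 (SD, n = 5) and 12.91 ± 0.09 and did not pass (adjusted p = 0.31). Of its auxiliary subunits Catsperg2 (-1.34 ± 0.12), Catsperd (-0.99 ± 0.11) and Catsperb fell, the last not above background on any spermatid array and at least 1.34-fold lower, and Catsperz was at 14.07 and 14.03 without passing. Kcnu1, the sperm potassium channel SLO3, and its partner Lrrc52 rose by 1.69 ± 0.22 and 2.27 ± 0.31. Catsper1 read 8.01, 7.35, 7.54, 7.52 and 8.10 and then 10.34, 10.13, 10.06, 10.32 and 10.22.

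A list of enzymes of energy metabolism and its signalling, largely but not only testis forms, had 14 tested members. Of these 8 rose, 3 fell and 3 did not pass (median 0.41). Gapdhs, the sperm glyceraldehyde-3-phosphate dehydrogenase, read 10.89, 10.44, 10.74, 10.62 and 10.82 and then 13.17, 13.15, 13.22, 13.27 and 13.18. The spermatid arrays were nearly level with each other and the rise was 2.50 ± 0.26 (5.64-fold, adjusted p = 4.34e-11). Hexokinase Hk1 rose by 2.51 ± 0.24, Oxct2b and Oxct2a, near-identical enzymes of ketone body use, by 2.72 ± 0.32 and 2.49 ± 0.35, and Pgk2, the autosomal phosphoglycerate kinase, by 1.28 ± 0.16. Adcy10, the soluble adenylyl cyclase of sperm, rose by 0.93 ± 0.14. Ldhc, the sperm lactate dehydrogenase, was at 14.71 and 14.68, at the top of the scale, and did not pass. Tkt, transketolase, which is not a testis form, fell by 0.93 ± 0.18 and the respiratory chain subunit Cox8c by 0.61 ± 0.13. Cox6b2 was lower by 0.59 ± 0.10 on its brightest probe and higher by 0.53 as the mean of its probes.

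The germline form of an enzyme was not always the one that rose. Of 38 listed pairs of a general and a germline form, 19 had both measured, and the germline form had the higher difference in 9. Gapdhs rose while Gapdh, at 0.33 ± 0.18, did not pass (adjusted p = 0.09, or 0.03 with same-numbered arrays as pairs). Calr3, a testis calreticulin, rose by 2.17 ± 0.30 while Calr, at -0.34 ± 0.18, did not pass (adjusted p = 0.09, or 0.01 with pairs). Ubl4b and its X-linked parent Ubl4a rose together, by 3.07 ± 0.36 and 2.21 ± 0.26. Pairs that went the other way included Psma8, the germline subunit of the proteasome, which fell by 2.95 ± 0.27 beside Psma7 at -0.30 ± 0.15, which did not pass (adjusted p = 0.08, or 0.04 with pairs). Gapdh passed without spermatocyte replicate 1 (0.51), and Calr (-0.47) and Psma7 (-0.39) without spermatid replicate 1. Stag3, the meiotic cohesin subunit, fell by 0.61 ± 0.11 while the X-linked Stag2 rose by 0.86 ± 0.18. Ldha fell by 0.63 ± 0.12 while Ldhc did not pass. Oxct1, the general form beside Oxct2a, was higher by 0.67 ± 0.19 on its brightest probe and lower by 0.57 as the mean of its probes.

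Among kinases and phosphatases of spermiogenesis, 9 of 17 tested rose, 2 fell and 6 did not pass (median 1.5). Tssk2, a testis-specific serine kinase, read 9.81, 9.58, 9.89, 9.96 and 10.06 and then 12.38, 12.35, 12.27, 12.44 and 12.22. The rise was 2.47 ± 0.29 with well separated groups. Tssk4 rose by 2.38 ± 0.30 and Prkar2a, the regulatory subunit of protein kinase A held by AKAP proteins, by 2.33 ± 0.27. The 2 probes of Pim1, a serine kinase, disagreed: the brighter one was not above background on any spermatocyte array and at least 3.37-fold higher in spermatids (adjusted p = 2.79e-11), while a probe above background on all 10 arrays differed by 0.35 and did not pass, so the change of Pim1 is uncertain. Stk31, a kinase with a tudor domain, fell by 1.99 ± 0.25 and Stk11 by 0.68 ± 0.11.

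Of 30 tested ubiquitin and proteasome genes, 15 were lower, 7 higher and 8 did not pass (median -0.34), beside 42.3% lower and 32.1% higher among all genes. Rnf133 and Rnf138, ubiquitin ligases, rose by 2.69 ± 0.31 and 2.01 ± 0.21, and Klhl10, a testis adaptor of CUL3, by 2.35 ± 0.25. Siah1a, a ligase needed in mice to finish meiosis, fell by 3.12 ± 0.23. Psma8 read 11.41, 11.22, 11.47, 11.41 and 11.69 in spermatocytes and 8.73, 8.34, 8.21, 8.68 and 8.49 in spermatids, a 7.73-fold fall with no overlap. Cul4a, a cullin scaffold, fell by 1.61 ± 0.18. Chaperones were even, 10 higher, 10 lower and 8 not passing of 28 (median -0.14). Hspa1l, a testis HSP70, rose by 2.66 ± 0.31, and Pdilt, a disulfide isomerase-like partner of calmegin, by 2.15 ± 0.31. Hspa4l and Hsph1, of the HSP110 family, fell by 1.71 ± 0.18 and 1.12 ± 0.18, and Hspa2, the spermatocyte HSP70 at the top of the scale, fell by 0.32 ± 0.10.

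The piRNA pathway, which makes small RNAs that silence transposons, held 20 tested genes: 17 fell, none rose and 3 did not pass in limma's test (median -1.18). With cyclic loess 1 member rose and 15 fell. Piwil1, MIWI, the PIWI protein of pachytene spermatocytes and spermatids, read 13.98, 14.06, 14.17, 14.12 and 13.87 in spermatocytes and 11.36, 11.42, 11.21, 11.15 and 11.02 in spermatids. All spermatid arrays lay over 2 log2 units lower, and the fall was 2.81 ± 0.14 (7.00-fold, adjusted p = 7.75e-20). Tdrd5, a tudor protein of the chromatoid body, read 10.85, 10.76, 10.97, 11.03 and 11.02 and then 7.17, 7.06, 6.48, 7.08 and 7.00. It fell 15.7-fold, the largest change in the list. Piwil2, MILI, fell by 2.15 ± 0.20, Pld6, a mitochondrial factor of piRNA processing, by 2.62 ± 0.27, the helicase Tdrd9 by 2.07 ± 0.19 and Tdrd1 by 1.93 ± 0.19. Tdrd7, at 12.77 and 12.83, and Ddx25, an RNA helicase at 13.75 and 13.59, did not pass.

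Of 27 tested genes of mRNA storage and translational control, 11 fell, 4 rose and 12 did not pass (median -0.29), with a share of falls close to the 42.3% of all genes. Rbm44, an RNA-binding protein of intercellular bridges, fell by 2.43 ± 0.19, Ddx6, a helicase of RNA granules, by 1.96 ± 0.27, and Elavl1, HuR, by 1.83 ± 0.20. Cpeb2, of the cytoplasmic polyadenylation element binding family, rose by 1.40 ± 0.21. Of the poly(A) polymerases, Papola rose by 1.14 ± 0.15 and the testis form Papolb by 0.48 ± 0.08. The Y-box proteins that coat stored mRNA, Ybx1 at 14.71 and 14.66 and Ybx2 at 13.96 and 13.90, did not pass.

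Meiotic structure and recombination genes were less uniform than the piRNA genes in direction. For the synaptonemal complex and chromosome axis, 7 of 16 tested fell, 4 rose and 5 did not pass (median -0.03, or 0.16 with cyclic loess). That share of falls was near the 42.3% of all genes, and the median lay above the -0.14 of all genes. Terb2, of the complex that ties telomeres to the nuclear envelope, was not above background on any spermatid array and lay at least 2.98-fold lower (adjusted p = 7.63e-10). Its partner Terb1 fell by 1.46 ± 0.20, Sun1, the envelope protein they bind, by 1.44 ± 0.16, and the axis proteins Sycp2 (-1.33 ± 0.16) and Hormad2 (-1.14 ± 0.20) fell as well. Rec8, the meiotic cohesin kleisin, went up: it read 8.04, 8.09, 8.41, 8.29 and 8.15 in spermatocytes and 10.85, 10.69, 10.68, 10.54 and 10.75 in spermatids. The rise was 2.51 ± 0.29 (5.68-fold, adjusted p = 4.56e-10). Syce2, a central element protein, rose by 2.09 ± 0.24 and Tex11, an X-linked meiotic protein, by 1.10 ± 0.22. Smc1b and Syce3 did not pass. Of 22 recombination genes, 10 fell, 3 rose and 9 did not pass (median -0.14), with 6 rising under cyclic loess and 1 under median centring. Here too the share of falls was near the 42.3% of all genes, and the median next to the -0.14 of all genes. Mlh3, of the crossover nuclease, fell by 2.58 ± 0.23, Spata22, an RPA partner, by 2.14 ± 0.29, Cntd1, a crossover cyclin-like factor, by 1.60 ± 0.16, and Spo11, which makes the meiotic DNA breaks, by 1.26 ± 0.13, from 12.18 to 10.92.

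Genes of meiotic entry and division were lower in 22 of 33 cases, higher in 4 and not passing in 7 (median -0.83). Cdk2, a cyclin-dependent kinase that sits at telomeres and crossovers, read 11.94, 11.96, 12.02, 12.03 and 12.12 in spermatocytes and 9.14, 8.88, 8.35, 9.01 and 8.64 in spermatids. The groups were more than 2 log2 units apart and the fall was 9.26-fold (adjusted p = 4.80e-17). Sgo2a, the shugoshin that guards centromeric cohesin, fell by 3.03 ± 0.20, and Cdca8, borealin of the chromosomal passenger complex, by 1.98 ± 0.18. The cyclin Ccne2 fell by 1.78 ± 0.22, securin, Pttg1, by 1.75 ± 0.19 and Cdk1, the kinase of division itself, by 1.46 ± 0.23. The phosphatases that activate those kinases rose, Cdc25c by 2.11 ± 0.18 and Cdc25a by 1.34 ± 0.15. Ccna1, the germline cyclin A, was at 11.57 ± 0.23 (SD, n = 5) and 11.59 ± 0.17, with overlapping groups and a difference of 0.02 ± 0.17 (adjusted p = 0.92).

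Among transcription factors and their partners, 17 of 34 tested rose, 13 fell and 4 did not pass (median 0.34). Spz1, a leucine zipper factor of spermatids, rose by 2.79 ± 0.29, Jund, of the AP-1 family, by 2.55 ± 0.30, Hsfy2, a heat shock factor relative, by 2.47 ± 0.24, and Kif17, the kinesin that carries the CREM cofactor ACT, by 2.41 ± 0.26. The RFX factors, which bind X-box elements, split. Rfx1 read 9.10, 9.04, 9.37, 9.31 and 8.92 and then 11.33, 11.62, 11.44, 11.43 and 11.66, a rise of 2.35 ± 0.28. Rfx3 rose by 2.21 ± 0.24, from 5.23 to 7.44. Rfx4 fell by 1.73 ± 0.17, from 10.35 to 8.61, and Rfx2, added here after its values were seen to complete the family, fell by 0.35 ± 0.11 on its brightest probe, from 13.31 to 12.96, and was higher by 0.42 as the mean of its probes. The groups did not overlap in any of the 4 genes. Gmcl1, germ cell-less, a nuclear envelope protein, fell by 3.91 ± 0.29 and Egr4, a zinc-finger factor, by 1.32 ± 0.20.

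The promoters of genes that rose and fell were searched for elements bound by 3 such families. The windows, from RefSeq on GRCm38.p6, ran from 250 bases before to 50 after a gene's start and were found for 8102 of the 9938 tested genes. The sequences are 5′ to 3′ on the gene's strand in lower case, with the element in capitals. Nqo2 and Actrt1, which rose, are shown for an RFX element, Izumo1, which also rose, for a cAMP response element of the kind CREM binds, and Piwil1, which fell, for an element of the MYB family to which the meiotic regulator A-MYB belongs. Their windows are chr13:33964409-33964708 (Nqo2), chrX:46328757-46329056 (Actrt1), chr7:45621561-45621860 (Izumo1) and chr5:128735996-128736295 (Piwil1), each on the plus strand.
Nqo2: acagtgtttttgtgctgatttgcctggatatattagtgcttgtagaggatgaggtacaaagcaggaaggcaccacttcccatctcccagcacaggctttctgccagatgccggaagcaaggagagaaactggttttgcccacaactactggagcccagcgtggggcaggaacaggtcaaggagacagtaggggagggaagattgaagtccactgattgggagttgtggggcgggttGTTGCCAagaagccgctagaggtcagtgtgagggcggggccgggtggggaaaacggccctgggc
Actrt1: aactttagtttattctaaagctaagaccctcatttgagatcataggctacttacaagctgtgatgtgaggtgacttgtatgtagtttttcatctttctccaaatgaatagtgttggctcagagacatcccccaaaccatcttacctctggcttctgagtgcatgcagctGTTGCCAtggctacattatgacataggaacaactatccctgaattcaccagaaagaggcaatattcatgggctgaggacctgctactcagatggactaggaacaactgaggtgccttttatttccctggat
Izumo1: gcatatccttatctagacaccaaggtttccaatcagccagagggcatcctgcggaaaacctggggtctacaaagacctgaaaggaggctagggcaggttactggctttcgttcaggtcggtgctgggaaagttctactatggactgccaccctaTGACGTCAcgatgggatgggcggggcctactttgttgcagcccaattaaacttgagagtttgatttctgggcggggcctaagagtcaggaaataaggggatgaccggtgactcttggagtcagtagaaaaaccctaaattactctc
Piwil1: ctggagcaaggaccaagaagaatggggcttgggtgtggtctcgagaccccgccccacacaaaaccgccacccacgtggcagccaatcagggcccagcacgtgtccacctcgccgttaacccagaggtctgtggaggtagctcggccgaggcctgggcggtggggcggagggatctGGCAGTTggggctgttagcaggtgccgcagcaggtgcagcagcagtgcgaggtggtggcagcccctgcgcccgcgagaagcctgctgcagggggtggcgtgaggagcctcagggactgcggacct

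The RFX element GTTGCCA, on either strand, began 14 bases before the start in the Nqo2 window shown and 81 before it in Actrt1. A second RefSeq start of Nqo2, with the window chr13:33966903-33967202, held none. Shares of genes below count a gene as holding an element if any of its windows did. GTTGCCA was present in 7.83% of 1482 genes at least 2-fold higher in spermatids and 4.55% of 1495 at least 2-fold lower. It was present in 5.15% of the 5125 others, against 5.53% of all tested genes with a window. Among 692 genes at least 4-fold higher the share was 8.82%. Counted by window, over all 32851 windows of the table, it was 4.38%. Shares by gene and by window differ in unit and are not directly comparable. The 8-base element TGACGTCA, 96 bases before the start in Izumo1, was found in 3.37% of the genes at least 2-fold higher. The share was 3.81% of those at least 2-fold lower, 3.72% of tested genes and, by window, 1.79% of all windows. The shorter form TGACG, which the 8-base element contains, was found in 28.7% and 37.7%, against 34.6% of tested genes and 20.8% of all windows. The MYB element AACTGCC, on the opposite strand 75 bases before the start in Piwil1, was found in 4.99% and 4.82%, against 4.70% and 4.12%. These shares describe letters in windows: no binding was measured. Izumo1, the sperm protein that binds the egg's JUNO, itself went from 8.65, 8.38, 8.77, 8.77 and 9.30 to 10.97, 10.87, 10.97, 11.01 and 11.18, a rise of 2.23 ± 0.34, and it was picked for this display after its values were seen. Nqo2, Actrt1 and Piwil1 were shown from among the genes named by the size of their differences, so their values were known as well.

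The X chromosome stood apart from the autosomes in direction. Of 272 tested X-linked genes, 206 (75.7%) were higher in spermatids and 9 (3.31%) lower, with a median difference of 0.92. Of 9637 autosomal genes, 30.8% were higher and 43.5% lower, with a median of -0.18. Medians of the 19 autosomes ran from -0.30 (chromosome 8) to 0.01 (chromosome 12). At least 2-fold, 127 X-linked genes were higher and 2 lower. All 13 tested Y-linked genes were higher, 11 of them at least 2-fold, with a median of 2.14.

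**Figure D3:**
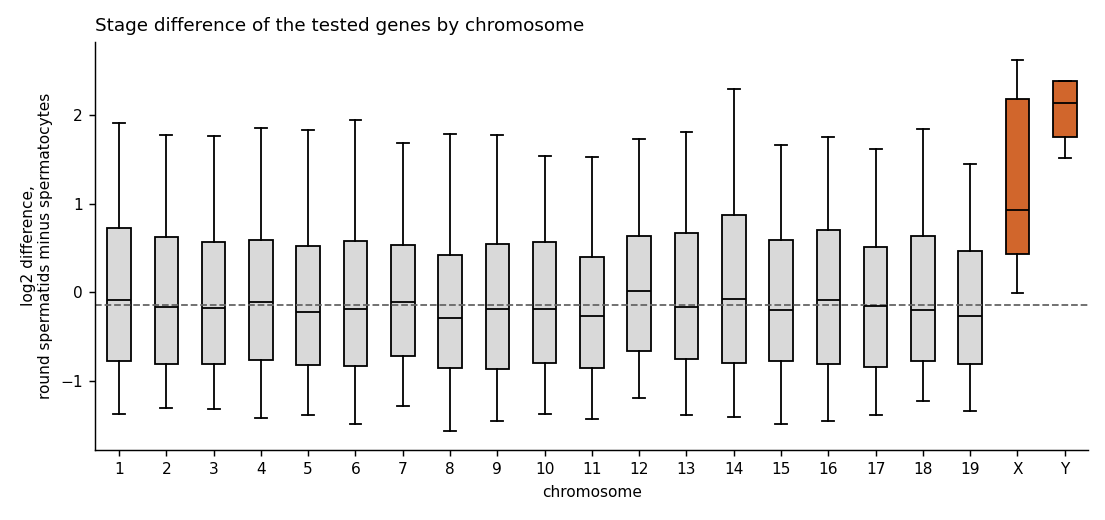
Log2 difference, round spermatids minus spermatocytes, of the tested genes of each chromosome (y axis). Boxes span the quartiles with the median as a line, whiskers reach the 10th and 90th percentiles, the dashed line is the median of all genes, and X and Y are in orange. The X median is 0.92 and the Y median 2.14, while the autosomal medians lie between -0.30 and 0.01.

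Among genes of the X and Y chromosomes known from spermatids, largely members of multicopy families, all 23 tested rose (median 2.26). With median centring 18 rose and none fell. Ssty1, a Y-linked spindlin relative, read 8.06, 7.81, 8.07, 7.77 and 8.62 in spermatocytes and 10.60, 10.46, 10.78, 10.50 and 10.97 in spermatids, a rise of 2.60 ± 0.33 without overlap. Cypt1 and Cypt2, cysteine-rich perinuclear theca proteins, rose by 2.78 ± 0.27 and 2.65 ± 0.30, H2al1m, an X-linked H2A variant, by 2.69 ± 0.29, and Tex13a by 2.60 ± 0.31. Since the copies of these families share sequence, the member that a probe reports is uncertain.

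Markers of other cells were present, and some lists differed between the groups. Summed linear levels overlapped for peritubular and vascular markers (1641 to 4326 in spermatocytes, 1501 to 2725 in spermatids). They overlapped as well for Sertoli markers (1413 to 2493 and 1985 to 4238) and spermatogonial markers (1281 to 1923 and 1297 to 1883). All 6 tested Leydig cell markers fell in spermatids (median -2.33). Insl3, the insulin-like hormone of Leydig cells, read 13.41, 13.52, 12.58, 12.38 and 12.31 on the spermatocyte arrays and 10.48, 9.80, 8.78, 8.63 and 9.43 on the spermatid arrays. Hsd17b3, the testosterone-forming dehydrogenase, was not above background on any spermatid array and lay at least 4.65-fold lower (limma, adjusted p = 2.20e-10). Of 18 markers of macrophages and blood on the array, 10 were tested. Of these 8 rose and 2 did not pass (median 1.37), beside 32.1% higher among all genes. Their mean log2 level in spermatocytes was 5.26, near the lower end of the scale at 4.25. A member at background there was tested only if above background in spermatids, which favours rises. The summed linear level of the 10 markers was 390 to 496 on the spermatocyte arrays and 835 to 1145 on the spermatid arrays. Complement C1qb, at 4.85 to 5.29 in spermatocytes and so near that end of the scale, rose by 2.16 ± 0.30. Apoe, apolipoprotein E, rose by 1.74 ± 0.23 and the globin Hba-a1 by 1.67 ± 0.45. Among peritubular and vascular markers 7 of 14 fell, beside 42.3% of all genes, with Acta2, smooth muscle actin, at -1.54 ± 0.42. Another 4 rose, with the matrix protein Dcn, decorin, at 3.03 ± 0.31. The 2 groups of arrays did not overlap for 1 member lower and 4 higher in spermatids, beside 36.8% and 27.9% of all genes. Sertoli cell markers were above background for 11 of the 19 on the array. Of these 4 rose and 7 did not pass (median 0.47), or 7 with same-numbered arrays as pairs, the largest difference being that of Defb36, a defensin, at 1.23 ± 0.27. Spermatogonial markers gave 2 higher, 2 lower and 6 not passing of 10 (median 0.31), or 5 higher with pairs, with the inhibitor of differentiation Id4 lower by 2.91 ± 0.27. The part of these cells in the differences of other genes was not tested.

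Markers of elongating spermatids, the stage after round spermatids, rose in 12 of 13 cases (median 2.12) and shared members with the lists above. All 13 were above background in spermatocytes too, where their mean level was 11.4 against 13.3 in spermatids. Their summed linear level was 50665 to 71481 on the spermatocyte arrays and 152867 to 166418 on the spermatid arrays. The part of spermatid RNA in the spermatocyte arrays, and in the size of the differences above, was not tested. Of 8 immediate early genes, which can respond to cell handling, 2 rose, 1 fell and 5 did not pass (median 0.28), or 4 and 2 with pairs. The 2 that rose were Klf4, a zinc-finger factor also made by spermatids (2.55 ± 0.26), and Dusp1, a phosphatase of MAP kinases (1.54 ± 0.25). Of 4 ribosomal protein retrogenes, Rpl36al fell by 0.67 ± 0.11 and 3 did not pass.

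**Figure D4:**
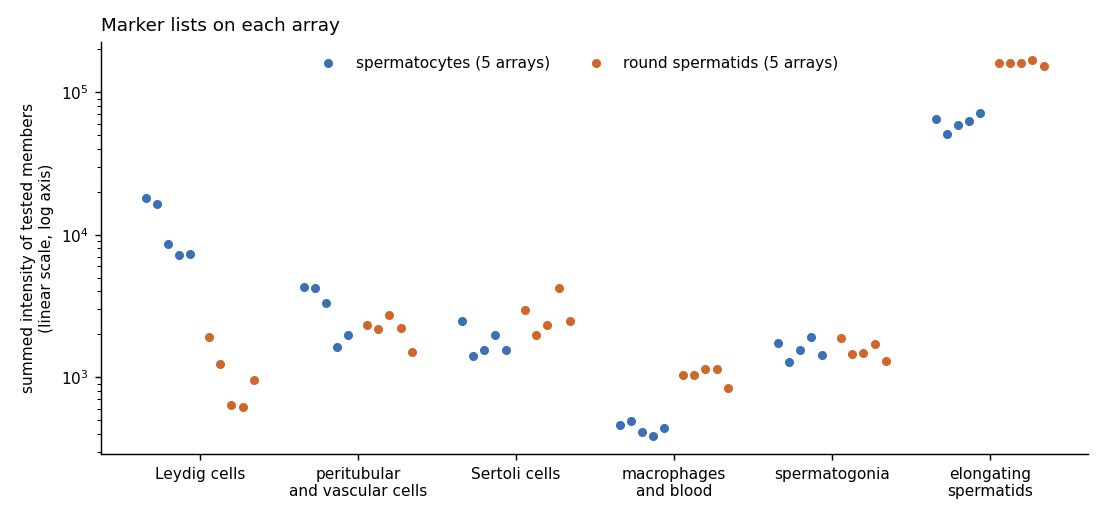
Summed intensity of the tested members of 6 marker lists on each array (y axis, linear intensity on a log axis; each member includes the offset of 16). Blue dots are the 5 spermatocyte arrays and orange dots the 5 spermatid arrays, in replicate order from left to right. Leydig markers span 7233 to 18098 in spermatocytes and 622 to 1901 in spermatids, and macrophage and blood markers 390 to 496 and 835 to 1145.

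The same stage comparison in the wild types of experiment 1 rests on 12 other arrays. Over the 9938 genes its differences correlated with those of experiment 2 at r = 0.96 (Spearman's rho = 0.95), as a description: genes are not replicates, and the experiments share the probes, the joint normalization and the estimate of spread. In experiment 1, 3079 genes (31%) were higher and 3990 (40.1%) lower. The genes called higher in both numbered 2756, which is 86.5% of those of experiment 2 and 89.5% of those of experiment 1. For lower genes the number was 3632, 86.3% and 91%. The 1833 genes at least 2-fold higher had a median of 1.94 there and 1.55 in experiment 1, and the 1839 at least 2-fold lower medians of -1.43 and -1.30, values that the choice of genes in experiment 2 favours. In experiment 1, 16.6% of genes were at least 2-fold higher and 15.7% lower. In the kd mice of experiment 2, on 10 other arrays, 3112 genes (31.3%) were higher and 4156 (41.8%) lower, 17.9% and 17.5% by at least 2-fold. There those medians were 1.77 and -1.36, and the X-linked median was 0.92, beside 0.93 in experiment 1. The transition proteins and protamines had a median of 2.47 here, 1.23 in experiment 1 and 2.23 in the kd mice. For the acrosome list the medians were 1.88, 1.31 and 1.49, and for the piRNA list -1.18, -0.92 and -1.17. Other lists had the larger median change in experiment 1: histone removal (-0.60 against -0.45 here), recombination (-0.34 against -0.14), synaptonemal complex and axis (-0.19 against -0.03) and chromatin enzymes (-0.43 against -0.29). So did ubiquitin and proteasome (-0.36 against -0.34), macrophages and blood (1.61 against 1.37) and transcription factors (0.41 against 0.34).

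The difference of the stage change between the experiments was tested as a contrast of its own, and 174 genes (1.75%) passed in limma's test. In experiment 2 it was more positive for 102 genes (1.03%) and more negative for 72 (0.724%). With same-numbered arrays as pairs these were 174 and 145. For 111 of the 174 the change had the same sign in both and was larger in experiment 2, for 22 it was smaller, and for 41 the signs differed. Prm3, Tnp2 and Tnp1 were among them, with a rise of 1.51, 1.23 and 0.56 in experiment 1 against 2.87, 2.47 and 1.38 here. Piwil1 fell by 3.64 in experiment 1 and by 2.81 here. The largest differences lay in other genes. Olfr611, an odorant receptor gene, rose by 2.15 ± 0.16 here and stood at 0.04 in experiment 1 (adjusted p = 0.83). Csmd1, a complement-control protein, rose by 2.53 ± 0.17 against 0.50. Kcnab1, a potassium channel beta subunit, read 7.56, 7.76, 7.78, 8.80 and 8.13 in spermatocytes and 5.27, 4.93, 4.86, 5.76 and 5.23 in spermatids here, a fall of 2.80 ± 0.29, against -0.07 in experiment 1. Cmya5, a muscle protein, fell by 1.94 ± 0.14 against 0.01, and Rnls, renalase, fell by 3.10 ± 0.29 against -1.21.

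**Figure D5:**
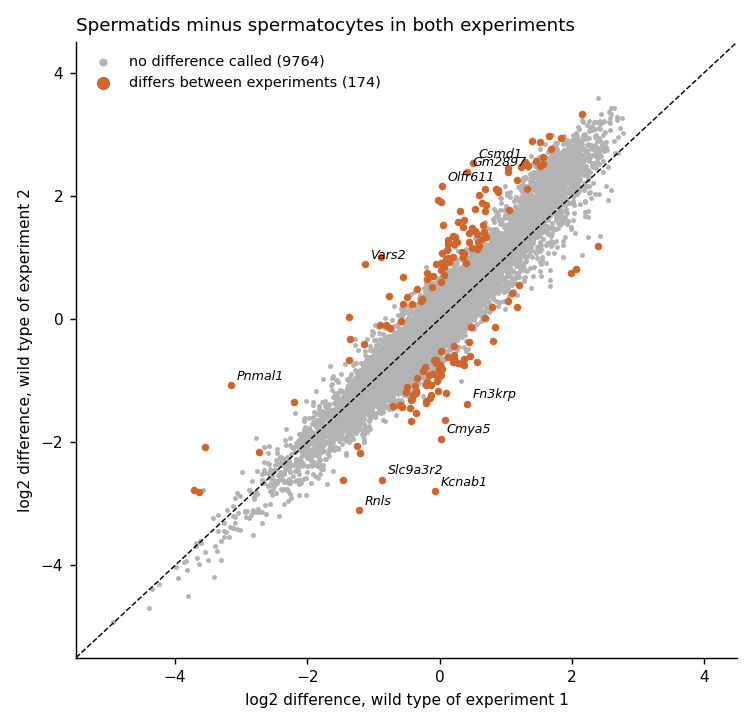
Log2 difference, round spermatids minus spermatocytes, of each of the 9938 genes in the wild types of experiment 1 (x axis) and experiment 2 (y axis). Orange dots are the 174 genes whose stage change differed between experiments in limma's test, the dashed line marks equal change, and the 10 largest differences are named. Most genes lie along the line, and 111 of the 174 changed the same way by more in experiment 2. The genes were kept by detection in experiment 2 alone, which favours larger changes there.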

How the data were processed

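The authors deposited mean bead intensities of 45281 probes for the 44 single-colour Illumina mouse arrays, with no normalization visible in the values, and a detection p-value per probe that sets it against negative control beads, per the file headers. The authors' processed intensity values are quantile normalized without background subtraction, as judged from the deposited values themselves. The scanner software and their normalization software are not given in the sources used here. Genes were named from the platform annotation: 34885 probes had 1 symbol, 18 several and 10378 none, and 34807 were updated through their Entrez number.

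The deposited intensities of all 44 arrays were background corrected and quantile normalized (limma's neqc, offset 16) to log2 values in R 4.3.3 with limma 3.58.1. A probe was kept where its detection p was under 0.05 on at least 4 of the 5 arrays of either wild-type group of experiment 2, and the brightest kept probe stood for its gene. Differences came from limma's moderated test over the 8 groups (36 residual degrees of freedom), Benjamini-Hochberg adjusted over 9938 genes at 0.05. The script was tested on simulated data. A probe at background on every array of a group has only a bound there: "at least" folds use the lowest signal above background on each array. Samples were grouped by array title. A p-value sets a difference against the spread between samples within groups, pooled over all 44 arrays. Where replicates are not known to come from separate animals, that need not be the spread between animals. Gene lists, pairs and motifs were chosen with earlier results of these data known. The genes named are the 15 largest differences each way among genes with non-overlapping groups, and of each list all members where at most 10 were measured, otherwise taken from the 6 largest rises, the 6 largest falls and the 2 brightest members that did not pass. Both members of listed pairs and the 5 largest differences each way between experiments were named as well. Of 744 list symbols, 739 matched the annotation and 664 were on the array.

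Deviations of same-numbered spermatocyte and spermatid arrays from their group means correlated at 0.37, 0.36, 0.22, 0.19 and 0.24, against at most 0.08 for other numbers. The numbers were therefore taken as pairs in an alternative fit, with the pairs as a block. The main fit, which gave the differences, SEs and p-values above unless pairs are named, did not use the pairing. The pairing comes from these data, not from the labels. The other alternatives were no background correction, median centring, cyclic loess, the authors' processed values, 3 other filters, the mean of a gene's probes, array weights, trend and robust priors, fewer groups, and each array left out.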

Additional observations from a re-analysis of the deposited data

Results flagged for a closer look

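The groups examined, 428 of 5 arrays each, were those of 214 of the genes named. For 19 of them (4.44%), 1 array stood apart from the other 4. Chance flags about 1 in 20 groups, and these 19 are near that share. In round spermatids the highest array stood apart for Acta2 (replicate 3, 8.93, others 7.98 to 8.25), Adam3 (replicate 2, 13.23), Adam6a (replicate 1, 9.40), Ep400 (replicate 2, 10.61), Gmcl1 (replicate 2, 8.11), Pou5f2 (replicate 2, 7.94, others 7.33 to 7.44) and Tssk4 (replicate 5, 11.72). The lowest array stood apart for Adam5 (replicate 3, 12.48), Cdk1 (replicate 3, 7.31), Olfr611 (replicate 2, 6.88), Pim1 (replicate 1, 6.15) and Tdrd5 (replicate 3, 6.48, others 7.00 to 7.17). In spermatocytes the highest array stood apart for C1qb (replicate 1, 5.29), Ldha (replicate 5, 13.66), Pdilt (replicate 3, 10.60), Piwil2 (replicate 3, 11.62) and Psma7 (replicate 1, 8.27), and the lowest for Ep400 (replicate 1, 11.61) and Ldhc (replicate 5, 14.57).

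The stage change differed between experiments, by the test of that difference in limma, for the 10 genes with the largest differences. Experiment 2 minus experiment 1 was 2.11 for Olfr611, 2.08 for Pnmal1 (-1.08 against -3.16), 2.03 for Csmd1, 2.02 for Vars2 (0.89 against -1.13) and 1.98 for Gm2897 (2.39 against 0.41). It was -2.73 for Kcnab1, -1.96 for Cmya5, -1.89 for Rnls, -1.79 for Fn3krp (-1.38 against 0.41) and -1.74 for Slc9a3r2 (-2.61 against -0.87). Gm2897 was not above background on any wild-type spermatocyte array of experiment 2. Only a bound holds for its rise there, at least 4.47-fold, so the sizes 2.39 and 1.98 are uncertain. In the kd mice of experiment 2 the stage change was 1.80 for Olfr611, 2.52 for Csmd1, -1.95 for Kcnab1 and -1.91 for Cmya5, and it was -3.39 for Pnmal1 and 0.02 for Vars2. Pnmal1 read 7.65 on spermatocyte replicate 2 here and 4.85 to 5.48 on the other 4 spermatocyte arrays. It was not among the genes examined for an array that stood apart.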

How the results depend on the processing

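Across 24 alternative settings, 4984 of 5020 values for 214 of the genes named kept their direction and their side of the threshold. 5 reversed, all when the kept probes of a gene were averaged: Usp7 (-0.10), Acrbp (0.33), Cox6b2 (0.53), Oxct1 (-0.57) and Rfx2 (0.42). The count of genes at least 2-fold lower moved from 1839 to 998 without background correction and to 1010 with the authors' processed values, neither of which subtracts background. Leaving out each array in turn gave 3077 to 3158 higher and 4059 to 4133 lower genes. Counts of genes whose stage change differed between experiments were the least stable: of 102 more positive and 72 more negative, the stricter filter left 41 and 32, and array weights gave 304 and 243. The replicate block, pairing same-numbered arrays, gave 174 and 145. Without background correction 170 were more positive, and with the authors' values 169. The cause was not tested, beyond the stricter filter testing fewer genes. The replicate block gave 3339 higher and 4392 lower genes in the stage comparison. Among the 214 genes it changed the call of Gapdh, Calr and Psma7 and no other. Slide as a block was not run, since the files used here give no slide. For probes at background in 1 group, signal over background allows only a bound.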
